A study of Gymnopus androsaceus with 9 samples.

Results

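The genes described here were transcribed at similar levels in mycelium of Gymnopus androsaceus after 2 and 5 months on pine needles and at levels at least 2-fold lower after 10 months. They number 119 of the 29375 JGI protein IDs listed. They were chosen from measured values, by a rule on unique gene reads that had been divided by DESeq2's median-of-ratios size factors and expressed as CPM of the average library, here called scaled CPM. The rule asked for a mean of at least 10 at 2 or 5 months, for both of these means to be at least 2 times the 10-month mean, for the 2- and 5-month means to lie within 1.5-fold of each other, and for each 10-month library to lie below all 6 others. Taken in that order, the conditions left 10294, 241, 127 and 119 genes, so the upper limit of 150 was not reached.

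Gymnopus androsaceus is a saprotrophic basidiomycete that colonises fallen conifer needles. Such fungi live on carbon from the needles, which they reach by secreting hydrolases that cut cellulose and hemicellulose and oxidative enzymes that attack lignin and related polymers. The chemistry of the remaining litter changes as it is consumed, and the transcript pool of the mycelium can change with it. The tables list JGI protein IDs with reads and RPKM and pair no ID with a gene name or product, so the members are given by ID, without a function and without sequence.

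The groups differed in the time of harvest, and the labels name no strain or mutation for the mycelium. Each sealed microcosm held 85 g of sand and 11 g of dry Scots pine needles, which had been sterilised by gamma radiation. A needle overgrown by the fungus on nitrogen-free agar was added, followed by 20 ml of 100 mM ammonium chloride, and growth was at 20 °C for 2, 5 or 10 months. Each harvest had 3 biological replicates, 9 libraries in all, while the protocol names 4 microcosms per harvest. Unique reads per library ran from 21939600 to 51907213 at 2 months, from 29885380 to 78159105 at 5 months and from 60591632 to 96533143 at 10 months. A set of 6 abundant genes that vary together took 24.9% of unique reads in 2-month replicate 2, 17.2% in 10-month replicate 1 and 31.9% in 10-month replicate 2, and between 1.24% and 6.84% in the other 6 libraries. Those 3 libraries stand apart, and some results are also given without them, which leaves 1 library at 10 months.

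The share of unique reads that fell on the members averaged 0.841% ± 0.112 in the 2-month libraries, 0.870% ± 0.0598 in the 5-month libraries and 0.203% ± 0.0655 in the 10-month libraries (SD, n = 3 each). On the scaled measure their levels summed to 6975, 7500 and 8300 scaled CPM in 2-month replicates 1, 2 and 3, to 6900, 7671 and 6980 in the 5-month replicates, and to 2586, 2136 and 2498 in the 10-month replicates. The summed level of the 6 earlier libraries thus varied little, and all 10-month libraries lay far below it, as the rule requires. With the 6 co-varying genes left out of the denominator the shares were 0.953% ± 0.0489 in the 2-month, 0.885% ± 0.0585 in the 5-month and 0.240% ± 0.0470 in the 10-month libraries (SD, n = 3 each). The 2-month mean was then above the 5-month mean, not below it. The median member stood at 35.4% of its mean of 2 and 5 months when harvested at 10 months, with a range from 10.8% to 49.6%. In mycelium measured in bulk, fewer hyphae of one kind and less RNA per hypha cannot be told apart.

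**Figure D1:**
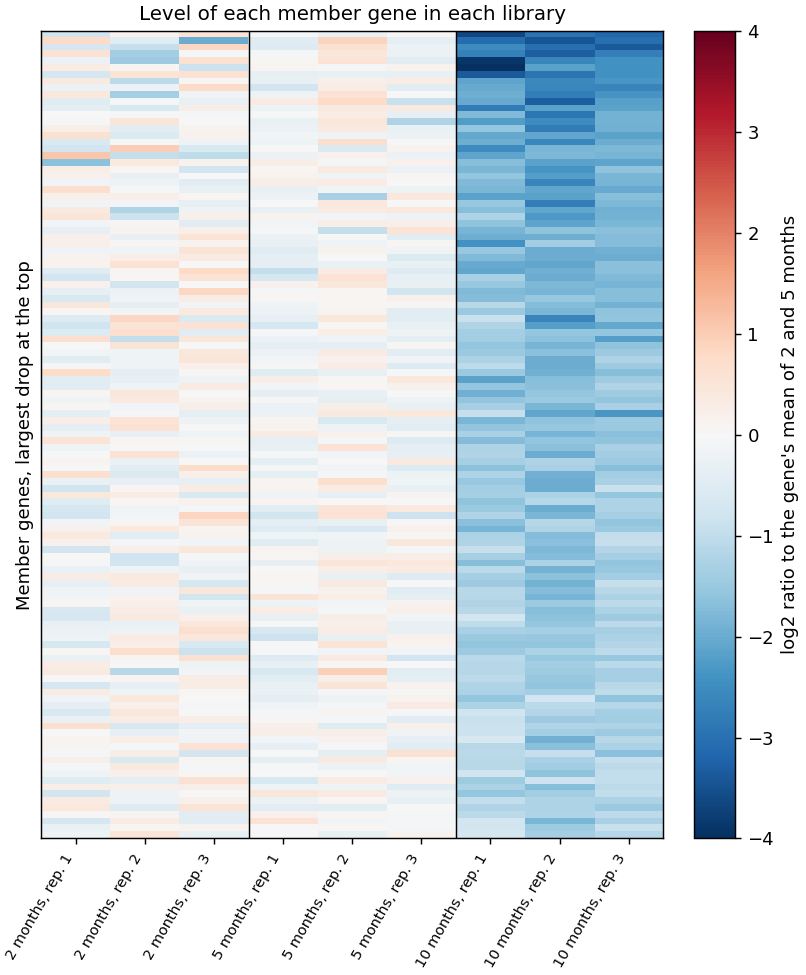
Level of each of the 119 members (rows, largest drop at the top) in each of the 9 libraries (columns), as the log2 ratio to that gene's mean of 2 and 5 months. The 3 columns of 10 months are blue throughout, while the 6 earlier columns scatter around 0, more widely at 2 months than at 5 months.

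The members lay low in each of the 10-month libraries, lowest in replicate 2. The median member stood at 36.1% of its mean of 2 and 5 months in 10-month replicate 1, at 29.8% in replicate 2 and at 35.3% in replicate 3. Replicate 2, the library richest in the 6 co-varying genes, was the lowest of its harvest for 75 members, replicate 1 for 24 and replicate 3 for 20. The same counts over all genes are not given here, so these cannot be read as particular to the members. A link with the co-varying genes was not tested. Replicate 3, in which the 6 genes took 1.24% of reads, had 110 of 119 members under 50% of their mean of 2 and 5 months, beside 105 in replicate 1 and 116 in replicate 2. The median of the members in the 10-month library with few reads of these genes was about as low as in replicate 1. The rule asked every 10-month library, replicate 3 included, to lie below all earlier ones. Low levels there were thus set by the choice of members. At 2 months the median member was at 93.4%, 96.9% and 102% in replicates 1 to 3, and at 5 months at 88.9%, 106% and 92.6%.

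**Figure D2:**
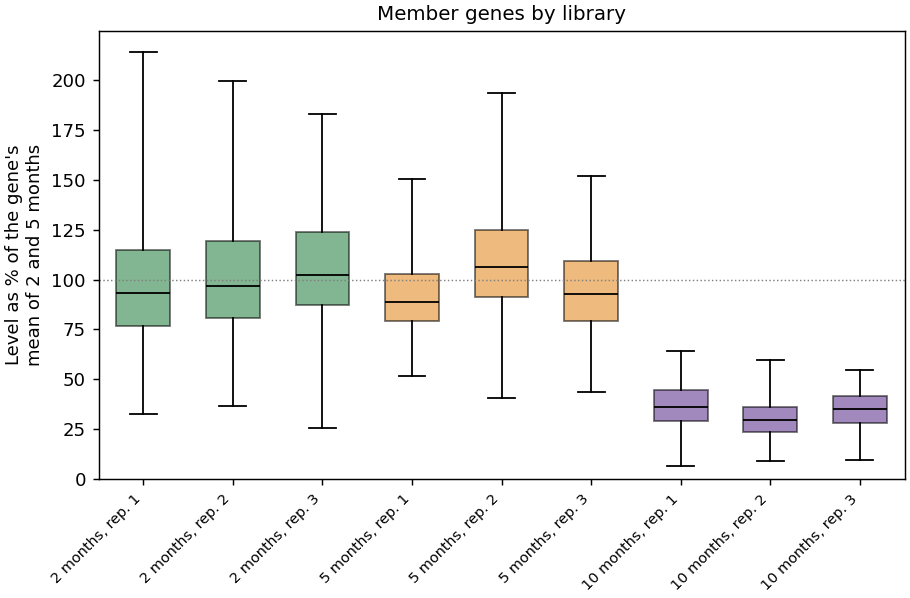
Levels of the 119 members in each library, as a percentage of each gene's mean of 2 and 5 months; boxes span the quartiles with the median as a line, and whiskers reach the lowest and highest member. Medians are between 88.9% and 106% in the 2- and 5-month libraries and between 29.8% and 36.1% in the 10-month libraries.

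The largest drop was in JGI protein ID 868392. It had 9.34, 18.2 and 23.9 scaled CPM at 2 months, 15.7, 13.4 and 16.8 at 5 months, and 1.299, 2.11 and 1.85 at 10 months. Behind these stood 581, 537 and 603 unique reads at 2 months, 1172, 1286 and 595 at 5 months, and 112, 103 and 112 at 10 months, although the 10-month libraries were the deepest on average. All 3 libraries of 10 months lay at least 4.43-fold under the lowest earlier library, the widest gap among the members. The edgeR log2 fold change was -3.31 ± 0.32 (SE) at 10 against 2 months and -3.14 ± 0.32 (SE) at 10 against 5 months. Its transcript is 755 bases long as implied by the deposited RPKM, and it shared no reads with other genes.

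ID 758737 followed, with the shortest transcript among the members, 249 bases. It had 18.7, 7.74 and 2.77 scaled CPM at 2 months, 7.70, 20.1 and 8.31 at 5 months, and 1.299, 1.003 and 1.34 at 10 months. The 10-month libraries were close together, whereas the earlier libraries of one harvest differed by several-fold and overlapped between 2 and 5 months. Its log2 fold change at 10 against 2 months was -3.03 ± 0.65 (SE) (edgeR), and -2.12 without 2-month replicate 1, its highest library of that harvest. At 10 against 5 months the log2 fold change was -3.31 ± 0.65 (SE), and -2.72 without 5-month replicate 2.

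The members that were most abundant at 2 and 5 months were IDs 914603 and 941572. ID 914603 had 388, 926 and 954 scaled CPM at 2 months, 502, 511 and 521 at 5 months, and 62.1, 84.3 and 119 at 10 months. Its 5-month libraries were nearly alike and lay inside the 2-month range, while the 10-month libraries lay far under both. Per kilobase of implied transcript length the gene ranked 81 at 2 months, 145 at 5 months and 1361 at 10 months among the 25486 genes with reads. The edgeR log2 fold change was -3.11 ± 0.35 (SE) at 10 against 2 months and -2.54 ± 0.34 (SE) at 10 against 5 months. ID 941572 had 427, 455 and 936 scaled CPM at 2 months, 506, 544 and 322 at 5 months, and 157, 146 and 162 at 10 months. It kept the highest level of any member at 10 months per kilobase, at 222 scaled CPM per kilobase, against 654 at 5 months and 867 at 2 months. Its log2 fold change was -1.98 ± 0.31 (SE) at 10 against 2 months and -1.56 ± 0.30 (SE) at 10 against 5 months (edgeR). The first was -1.52 without 2-month replicate 3.

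ID 995600 also kept a high level at 10 months, at 128 scaled CPM per kilobase and rank 1311; before division by length it was second among the members there. It had 479, 196 and 242 scaled CPM at 2 months, 354, 218 and 356 at 5 months, and 168, 134 and 132 at 10 months. The highest 10-month library was not far under the lowest 2-month library, so the separation was narrow. Its log2 fold changes were -1.10 ± 0.32 (SE) at 10 against 2 months and -1.10 ± 0.32 (SE) at 10 against 5 months. Without 2-month replicate 1 the first was -0.61 and was no longer called (edgeR, adjusted p = 0.0828), and without 10-month replicate 2 or 3 it was not called either (adjusted p = 0.0657 and 0.0677). Without 5-month replicate 1 or 3, or 10-month replicate 2 or 3, the second was not called (adjusted p = 0.0916 to 0.104). Neither was called without the 3 libraries rich in the co-varying genes (adjusted p = 0.0933 and 0.186).

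Ranked per kilobase among 25486 genes, the median member stood at place 5095 in the 2-month harvest, 5265 in the 5-month harvest and 9651 in the 10-month harvest. These places lie in the upper part of the ranking at all harvests. The rule's level minimum favours such places at 2 and 5 months. At 2 months the median level per kilobase was 23.7 scaled CPM in the members. It was 23.1 in the 10294 genes at that minimum. Before any division by length, 42 members averaged under 20 scaled CPM over 2 and 5 months, 39 between 20 and 50, 21 between 50 and 100, and 17 at 100 or more. Among the 1000 most abundant genes per kilobase there were 10 members at 2 months, 13 at 5 months and 2 at 10 months. No member was lost from the transcript pool at 10 months, since the rarest still had 49 unique reads in a single 10-month library, well over the floor of 3 reads.

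**Figure D3:**
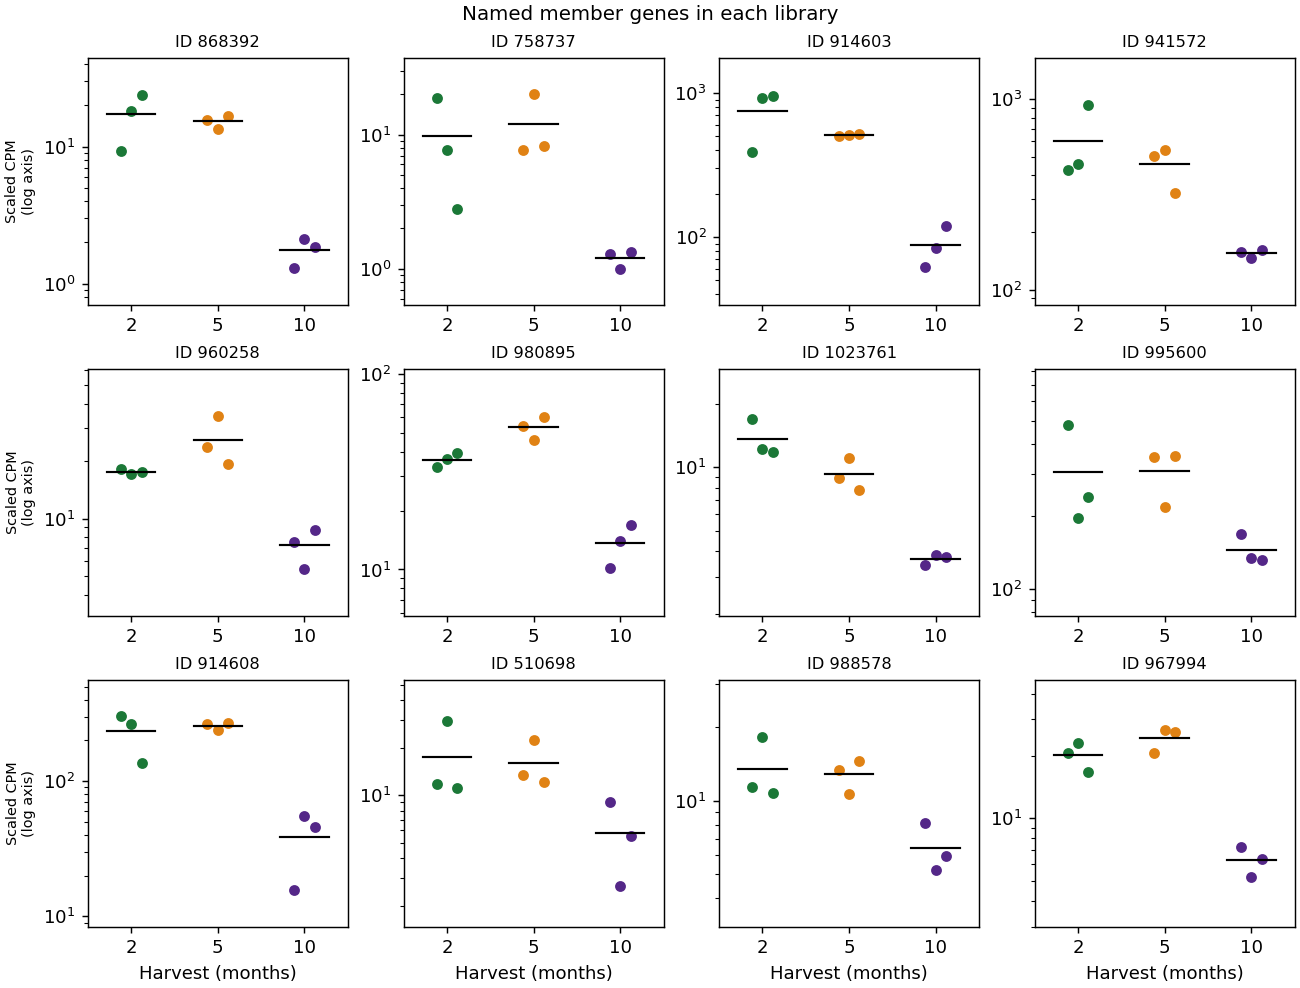
Scaled CPM (log axis) of 12 members in each library of 2, 5 and 10 months; each point is 1 library in replicate order and each line the mean of 3. In each panel the 10-month points lie under all others, most widely for ID 868392, and the 2- and 5-month points overlap in most panels.

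The drop was mostly of moderate size. The lower of the 2- and 5-month means was between 2 and 2.5 times the 10-month mean in 56 members, between 2.5 and 3 times in 26, between 3 and 4 times in 24 and at least 4 times in 13. The median ratio was 2.58 and the highest 8.73. Between the lowest earlier library and the highest 10-month library the median gap was 1.65-fold. It was at least 1.5-fold in 77 members and at least 2-fold in 32, and it was under 1.1-fold in 5. The 13 members with the largest drops had a median transcript length of 755 bases, against 1225 bases in the 56 with the smallest. Across all 119 members, however, drop and length had a Spearman rho of only -0.12, and drop and earlier level per kilobase one of 0.04. The rho of drop was 0.25 with the SD of log2 level between the 2-month libraries. With the percentage of reads shared with other genes it was 0.24. These are descriptions across genes measured in the same libraries.

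At the edge of the rule, ID 988578 was the last gene inside, with a ratio of 2.01. Its mean was 13.5 ± 4.19 scaled CPM in the 2-month libraries, 12.9 ± 2.01 in the 5-month libraries and 6.41 ± 1.499 in the 10-month libraries (SD, n = 3 each). ID 995729 was the first outside among genes that met every other condition, with a ratio of 1.999. Its mean was 159 ± 45.3 scaled CPM in the 2-month libraries, 159.6 ± 26.2 in the 5-month libraries and 79.5 ± 5.66 in the 10-month libraries (SD, n = 3 each). The members therefore do not form a group set apart by a gap: 641 further genes met all conditions but the 2-fold drop, with a median ratio of 1.42.

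In the edgeR fit over all 20168 genes tested, 118 of the 119 members were called lower at 10 against 2 months at an adjusted p under 0.05, where 15.6% of all tested genes were called lower. At 10 against 5 months 117 were called lower, where 8.19% of all tested genes were. The rule used these contrasts and these libraries, so the counts describe the members and are no test of them. All 119 passed the filter on low counts. The median log2 fold change of the members was -1.58 at 10 against 2 months and -1.46 at 10 against 5 months, beside -0.03 and -0.03 over all genes tested. Both comparisons share the 10-month libraries. Without the 3 libraries rich in the 6 co-varying genes, which leaves 1 library at 10 months that is assumed to vary like the others, 65 and 43 members were called lower, where 3.32% and 1.16% of the 20714 genes tested were, and the medians were -1.56 and -1.46.

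The exceptions are named here after their values were seen. ID 1078150 was not called at 10 against 2 months, at a log2 fold change of -1.15 ± 0.44 (SE; edgeR, adjusted p = 0.0730). It had 45.2, 16.6 and 33.1 scaled CPM at 2 months, 22.7, 68.7 and 26.7 at 5 months, and 15.9, 13.2 and 14.3 at 10 months. Its 10-month libraries agreed closely while its earlier libraries spread widely, and its gap of 1.04-fold was the narrowest of the members. It was called in 5 of 20 alternatives, by DESeq2 (adjusted p = 0.0206), with a stricter count filter, with only the 2 harvests compared, and without 2-month replicate 2 or 5-month replicate 2. IDs 510698 and 1001351 were not called at 10 against 5 months (edgeR, adjusted p = 0.0673 and 0.0913), though DESeq2 called both, as it did all 119 members in both comparisons. ID 1001351 had 40.4, 64.5 and 127 scaled CPM at 2 months, 41.8, 103 and 39.4 at 5 months, and 30.1, 19.7 and 27.5 at 10 months. Its log2 fold change at 10 against 5 months was -1.26 ± 0.47 (SE; edgeR), and it was called in 2 of 20 alternatives, DESeq2 (adjusted p = 0.0179) and the stricter count filter (adjusted p = 0.0499).

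IDs 914608 and 510698 differed most between the 10-month libraries. ID 914608 had 302, 263 and 135 scaled CPM at 2 months, 264, 239 and 269 at 5 months, and 15.6, 55.2 and 46.0 at 10 months. Replicate 1 of 10 months was several-fold under the other two, yet all 3 lay well under the earlier libraries. Its log2 fold change was -2.61 ± 0.43 (SE) at 10 against 2 months and -2.74 ± 0.43 (SE) at 10 against 5 months (edgeR). ID 510698 had 11.8, 29.6 and 11.1 scaled CPM at 2 months, 13.4, 22.3 and 12.1 at 5 months, and 9.04, 2.66 and 5.54 at 10 months. Here replicate 1 of 10 months was the highest of its harvest and came near the lowest earlier libraries. Its log2 fold change at 10 against 2 months was -1.60 ± 0.50 (SE). Without 2-month replicate 2 it was -0.997 and the call was lost (edgeR, adjusted p = 0.116), as it was without 10-month replicate 2 or 3 (adjusted p = 0.0788 and 0.0861) and with replicate number as a block (adjusted p = 0.0571). It was lost as well with no filter (adjusted p = 0.0739) and without the 3 libraries rich in the co-varying genes (adjusted p = 0.142), so in 6 of 20 alternatives. At 10 against 5 months its log2 fold change was -1.47 ± 0.49 (SE), and it was called in 7 of 20 alternatives, with adjusted p down to 0.00757 by DESeq2. Among these were leaving out 2-month replicate 2 or 10-month replicate 1 (edgeR, adjusted p = 0.0306 and 0.0337).

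Between 5 and 2 months the members were held within 1.5-fold by the rule. Their 5-month mean was above the 2-month mean in 50 and below it in 69, and 31 lay within 1.1-fold. The libraries of both harvests overlapped in 106 members. The 5-month libraries stood entirely above those of 2 months in 7 and entirely below in 6. The 1.5-fold limit favours such overlap. The same counts over all genes are not given here, so these are not a trait particular to the members. By edgeR 1 member was called at 5 against 2 months, where 20.7% of all tested genes were called in either direction. This was ID 846240, named after its value was seen, with 67.2, 87.2 and 60.5 scaled CPM at 5 months, against 97.8, 105 and 110 at 2 months. Its log2 fold change was -0.55 ± 0.17 (SE; edgeR, adjusted p = 0.0410), and at 10 months it stood at 25.6, 22.1 and 22.4. It was called in 6 of 20 alternatives, with adjusted p between 0.0192 and 0.379 over all of them. The count of members called was between 0 and 4 under the alternatives tried. DESeq2 gave 4, while edgeR gave 3 when 2-month replicate 2 was left out and 2 when either 2-month replicate 1 or 10-month replicate 1 was. It gave 0 on leaving out 5-month replicate 1, 10-month replicate 2 or 10-month replicate 3. At an unadjusted p under 0.05 edgeR listed 9 members lower and 3 higher at 5 months, where 34.9% of all tested genes were listed in either direction.

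The members that differed most between 5 and 2 months did so in both directions. ID 960258 had 23.6, 34.6 and 19.3 scaled CPM at 5 months, against 18.1, 17.1 and 17.5 at 2 months, and 7.59, 5.44 and 8.75 at 10 months. ID 980895 had 54.1, 46.0 and 60.4 at 5 months, against 33.3, 36.5 and 39.2 at 2 months, and 10.1, 13.9 and 16.9 at 10 months. In both genes all libraries of 5 months lay above those of 2 months, and neither passed the threshold in edgeR (adjusted p = 0.115 and 0.0643). The second had a log2 fold change of 0.55 ± 0.19 (SE), and was called in 4 of 20 alternatives. These were a stricter count filter (adjusted p = 0.0436), DESeq2 (adjusted p = 0.0472), a fit of only the 2 harvests compared (adjusted p = 0.0484) and leaving out 10-month replicate 1 (adjusted p = 0.0455). It also had, with ID 967994, the lowest adjusted p of the members at 10 against 5 months, where its log2 fold change was -1.98 ± 0.20 (SE). ID 967994 had 20.7, 23.2 and 16.7 scaled CPM at 2 months, 20.7, 26.8 and 26.0 at 5 months, and 7.30, 5.20 and 6.35 at 10 months.

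In the other direction, ID 914603, described above, and ID 1023761 had the lowest ratios of 5 to 2 months. ID 1023761 had 8.88, 11.1 and 7.77 scaled CPM at 5 months, against 16.9, 12.3 and 11.8 at 2 months, and 3.41, 3.81 and 3.75 at 10 months. It was lower in all 5-month than in all 2-month libraries, but its log2 fold change of -0.57 ± 0.21 (SE) did not pass the threshold (edgeR, adjusted p = 0.0689). Of 20 alternatives, DESeq2 alone called it (adjusted p = 0.0469). The log2 fold change of ID 914603 at 5 against 2 months was -0.57 ± 0.32 (SE) (edgeR, adjusted p = 0.226), and without 2-month replicate 1 it was -0.88 and called (adjusted p = 0.0337). Of the reads of ID 1023761, 17.7% also map to other genes, so its level is uncertain.

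Shared reads were otherwise rare. They made up 10% or more in 6 members (5.04%), at most 34.1%, and 5.12% of the 10294 genes at the rule's level minimum reached that share. No read was shared in 65.5% of the members, against 51.4% of the genes at the level minimum. The implied transcript length had a median of 1224 bases in the members, with quartiles at 937 and 1671 bases, against a median of 1338 bases with quartiles at 920 and 1882 bases in the genes at the level minimum. The members' middle range of lengths therefore lay within that of the wider set, with fewer long transcripts. The rule did not use these measures, and as genes are not replicates the differences were not tested.

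The members had a wider spread between replicates than most genes of sufficient level, a description across genes that was not tested. This spread was taken from the same scaled levels that the rule used, so the choice of members can shape it. The SD of log2 level between the 2-month libraries had a median of 0.41 in the members, against 0.25 in the 10294 genes at the level minimum. At 5 months the median SD was 0.26 in the members and 0.19 in the wider set, and at 10 months 0.29 and 0.19. The 2-month libraries took turns: replicates 1, 2 and 3 were the lowest of that harvest for 46, 41 and 32 members and the highest for 38, 40 and 41. At 5 months replicate 2 was the highest for 61 members. For these counts too, those over all genes are not given here. The summed level of the members nevertheless stayed between 6900 and 8300 scaled CPM in all 6 earlier libraries.

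**Figure D4:**
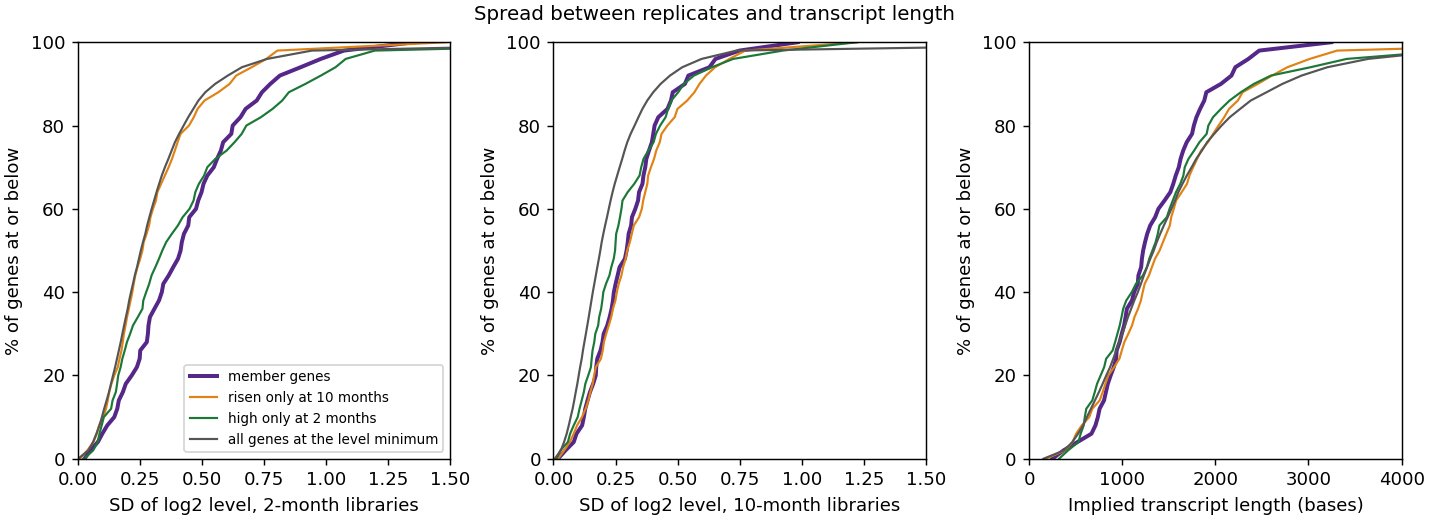
Cumulative share of genes (vertical axis, %) by SD of log2 level between the 2-month libraries, by the same SD at 10 months and by implied transcript length in bases, for the members, for genes that pass the mirrored rules described in the text and for all genes at the level minimum; the longest transcripts and widest spreads run off the axes. The members' curve lies right of that of all genes over most of both spread panels. In the length panel 90% of the members lie at or below 2060 bases, against 2719 bases for all genes at the level minimum.

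The same rule turned round gives the number of genes with related patterns. With 10 months as the high harvest, 414 genes passed, against 119 with 10 months as the low harvest. With 2 months as the low harvest 302 genes passed, and with 2 months as the high harvest 164. With 5 months, 18 were low and 86 high. Genes falling at 10 months alone were therefore fewer than genes rising at 10 months alone under this scaling, a difference in counts that was not tested. The spread between the 2-month libraries had a median SD of log2 level of 0.26 in the 414 genes that were high at 10 months alone and of 0.34 in the 164 that were high at 2 months alone, beside 0.41 in the members. At 10 months the medians were 0.30 and 0.25, beside 0.29 in the members.

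How many genes met the rule depended on the scaling of the libraries. With edgeR's TMM factors 122 genes passed, among them all 119 members, and with upper-quartile factors 153, again with all 119. Scaling to library totals alone let 604 genes pass, with 110 of the members among them. Under it the log2 fold change of all tested genes had a median of -0.43 at 10 against 2 months and of -0.57 at 10 against 5 months, and the members had medians of -1.97 and -1.98. The members were chosen for a drop in these same counts, and a change of scaling moves all genes of a library alike. Their median was therefore bound to stay below that of all genes, and this is no test of the drop. The condition that each 10-month library lie below all earlier ones is easier to meet with fewer libraries. This limits the counts that follow, most of all without the 3 libraries rich in the 6 genes, which leaves 1 at 10 months. Leaving out any 1 library gave between 104 and 145 genes. Of the members 90 remained without 2-month replicate 2, the fewest, and 116 without 10-month replicate 1, the most. Without the 3 libraries rich in the 6 genes 122 genes passed and 80 of the members were among them.

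**Figure D5:**
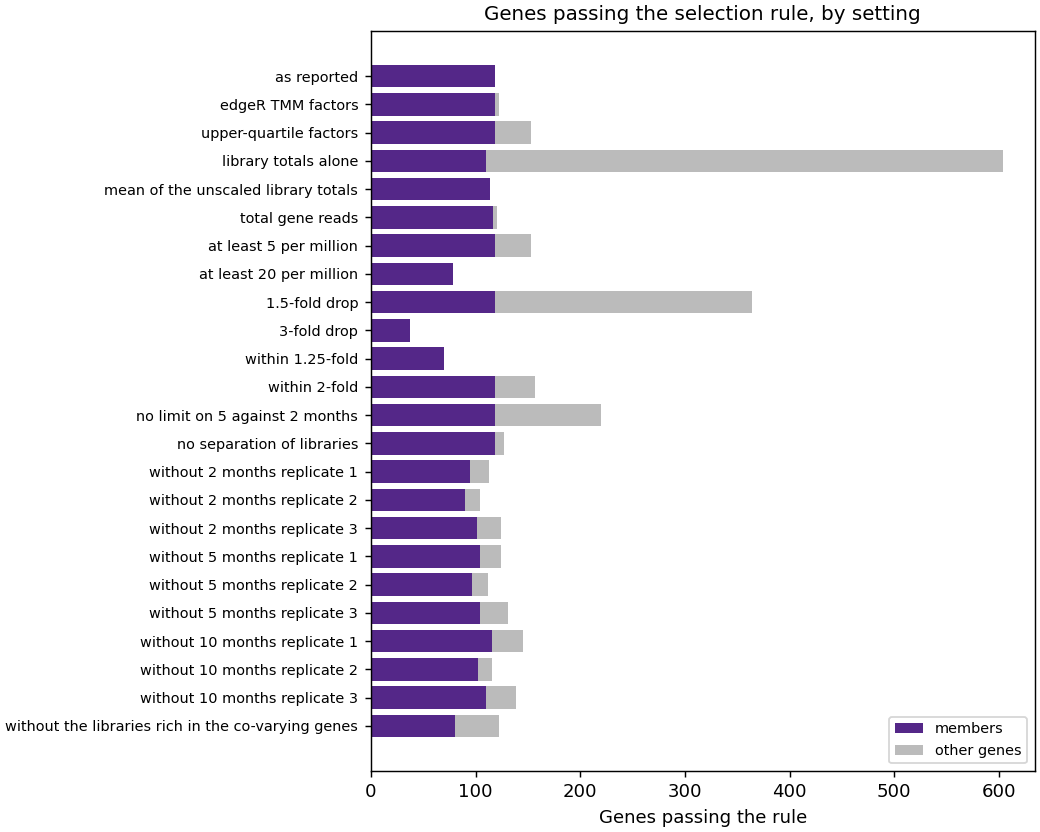
Number of genes passing the selection rule (horizontal axis) as reported and under each alternative setting, split into the 119 members (purple) and other genes (grey). Most settings keep between 104 and 157 genes, while library totals alone let 604 pass and a 3-fold drop leaves 37.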

How the data were processed

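Total RNA from mycelium on needle litter was sequenced as Illumina libraries, per the labels' protocols, 3 per harvest. Each table deposited by the authors holds, per the file headers, 2 counts per gene (unique and total gene reads) and an RPKM; RPKM was used here only to obtain transcript lengths, which came out as whole numbers within 0.05 bases. Which aligner, counter and annotation made them is not given in the sources used here. Members and lists were chosen with earlier results of these data known.

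The test was that of edgeR 4.0.16, run in R 4.3.3 (TMM, filterByExpr, robust quasi-likelihood, all 9 libraries, 6 residual degrees of freedom) and a call meant an adjusted p (Benjamini-Hochberg, over 20168 genes) under 0.05. Fold changes in the text are edgeR's unless stated; the SE is the one implied by the F statistic. This step was first tested on simulated counts, with 100 genes changed 2-fold and 100 changed 4-fold. Of the 2-fold changes 51% were recovered at 10 against 2 months, 61% at 10 against 5 months and 57% at 5 against 2 months. Of the 4-fold changes 98% to 99% were recovered. False calls made up 10.2%, 6.47% and 6.59% of the calls in these comparisons. Spread was taken on log2 (scaled CPM + 0.1). The 6 co-varying genes are those correlated over 0.95 with the most abundant gene. Named members are the 2 with the largest drop, highest earlier level, highest and lowest ratio of 5 to 2 months, highest 10-month level, largest 10-month spread and lowest adjusted p at 10 against 5 months, and those at the edge of the rule. DESeq2 1.42.0 and limma 3.58.1 were alternatives, with other scalings, filters, rule limits, a replicate block, total reads and libraries left out. No 2 libraries of a harvest agreed within sampling noise (chi-square per gene at least 78.7). No product names, gene lists, sequences or genome were used.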

Additional observations from a re-analysis of the deposited data

How the results depend on the processing

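Beside the settings given with the results, 78 genes passed with a minimum of 20 scaled CPM, 364 with a 1.5-fold and 37 with a 3-fold drop, 70 with a narrower limit between 2 and 5 months and 220 with no such limit. Leaving out 1 library gave 104 to 145. Library totals alone gave 604. Members called lower at 10 against 2 months numbered 112 to 119 and at 10 against 5 months 103 to 118 without single libraries, with median log2 fold changes of -1.67 to -1.47 and -1.55 to -1.41. Library totals alone moved the medians to -1.97 and -1.98. Without the 3 libraries rich in the co-varying genes 65 and 43 were called lower, a fit with fewer libraries. Members called at 5 against 2 months, 1 as reported, numbered 0 to 3 without single libraries, 2 without those 3 libraries, 4 with DESeq2, and 0 with upper-quartile factors, library totals alone, no filter or a replicate block. With the replicate block 117 and 114 members were called lower at 10 against 2 and 10 against 5 months. The replicate numbers gave no sign of pairing the libraries. Deviations of same-numbered libraries from their harvest means correlated between -0.33 and 0.17, and those of differently numbered ones between -0.26 and 0.30. With 3 libraries per harvest this check cannot exclude pairing. Without the 6 co-varying genes in the denominator the members took 0.953% of reads in the 2-month, 0.885% in the 5-month and 0.240% in the 10-month libraries. No named member changed direction at 10 against 2 or 10 against 5 months. At 5 against 2 months this was followed for IDs 960258, 980895, 914603 and 1023761, which kept theirs. Calls were less steady than direction without the 3 libraries rich in the co-varying genes, which leaves 1 library at 10 months. IDs 758737, 960258 and 988578 then lost both calls. IDs 914603, 941572 and 1023761 lost that at 10 against 5 months. Depth limits no member, as each had at least 49 unique reads in every 10-month library.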

Other observations

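Just outside the rule were 101 genes that met every condition except the 1.5-fold limit between 2 and 5 months. Their mean was lower at 5 than at 2 months in 84 and higher in 17, so most of them were already lower at the middle harvest. The lower of their 2- and 5-month means was a median of 2.70 times the 10-month mean, beside 2.58 times in the 119 members. A further 201 genes failed only the level minimum, with a median ratio of 2.58 and a highest of 37.4, and 8 failed only the separation of libraries. These groups are values of the same libraries and were not tested.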
